A study of Xenopus laevis with 12 samples.

Results

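In the brains of *Xenopus laevis* tadpoles, 18 of the 51041 genes listed were higher than the control after exposure to the amniotic mixture and also after exposure to T4. These members were chosen by their measured values. The mean of the control group had to be at least 1 CPM, the unit of a gene's count scaled by the sum of the counts on all genes of the sample. The group mean of log2(CPM + 0.5) had to be at least 0.3 above that of the control group after each exposure, and every exposed sample had to be above every control sample. The amniotic mixture group held 4 samples exposed to a mixture of 15 chemicals at 1x, the level measured in human amniotic fluid. The T4 group held 4 samples exposed to 10 nM thyroxine. The control group held 4 samples kept in the solvent DMSO, which the exposed groups received at the same level. All eggs were exposed from fertilization for 8 days, and each sample was a pool of 2 brains. The 4 samples of a group came from 2 breedings.

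Thyroxine is the form of thyroid hormone that circulates in the largest amount. Deiodinases in the tissue convert it into T3, which binds nuclear thyroid hormone receptors on DNA and so turns target genes on or off. The hormone drives amphibian metamorphosis, and the tadpole brain responds to it. The mixture held phenols, phthalates, pesticides, heavy metals and halogenated compounds, several of which are known or suspected to disturb thyroid hormone signaling. T4 served as the reference for a thyroid hormone response, to which the response to the mixture was compared.

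The samples held from 10420292 to 11685566 reads on genes. Genes appear in the files as numbers, and 0 of these could be matched to a name, so that no function is given for any member and the brain label was not checked against marker genes. The members are numbered here from 1 to 18 by falling mean level in the control group, and 4 of them are given with the number in the files. *X. laevis* carries many genes as 2 similar copies, and only reads that mapped to a single place were counted, which leaves the counts of near-identical copies uncertain. The strand setting of the counting is not given in the sources used here, so that genes overlapping on opposite strands are uncertain too. In a whole brain, more cells of a type and more RNA per cell cannot be told apart.

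Of the genes listed, 26401 had a control mean of at least 1 CPM. Of these, 1108 had a difference of at least 0.3 after the mixture, 3674 had one after T4, and 247 had both. Among the 247, all mixture samples were above all control samples in 26 genes and all T4 samples in 94 genes. Among all 26401 genes, the mixture samples were all above the control samples in 2.04% and the T4 samples in 13.6%. The rule fixed both conditions for the 18 members, so nothing is read from these shares. The exposures were set against the same 4 control samples. Low control values therefore raise both differences of a gene. The condition on overlap took the 247 genes to 18. The limit on the mixture difference alone kept out 46 genes, the nearest at 0.295, while the nearest members were at 0.303 and 0.307. The limit on the T4 difference alone kept out 3 genes, the nearest at 0.274, against 0.367 for the nearest member. The limit on the control level alone kept out 10 genes, the nearest at 0.442 CPM, against 1.64 CPM for the lowest member.

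The members were genes of low to moderate level. Their control means ranged from 1.64 to 65.6 CPM with a median of 7.22 CPM, against a median of 21.8 CPM over the 26401 genes. The differences from the control ranged from 0.30 to 0.59 on the log2 scale after the mixture, with a median of 0.37. After T4 they ranged from 0.37 to 2.49, with a median of 0.72. In group means of CPM, these were 1.25-fold to 1.58-fold levels after the mixture and 1.30-fold to 7.01-fold levels after T4. The T4 difference was the larger in 17 members, and it was at least 2 times the mixture difference in 8. These values chose the members and are a description, with no test.

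**Figure D1:**
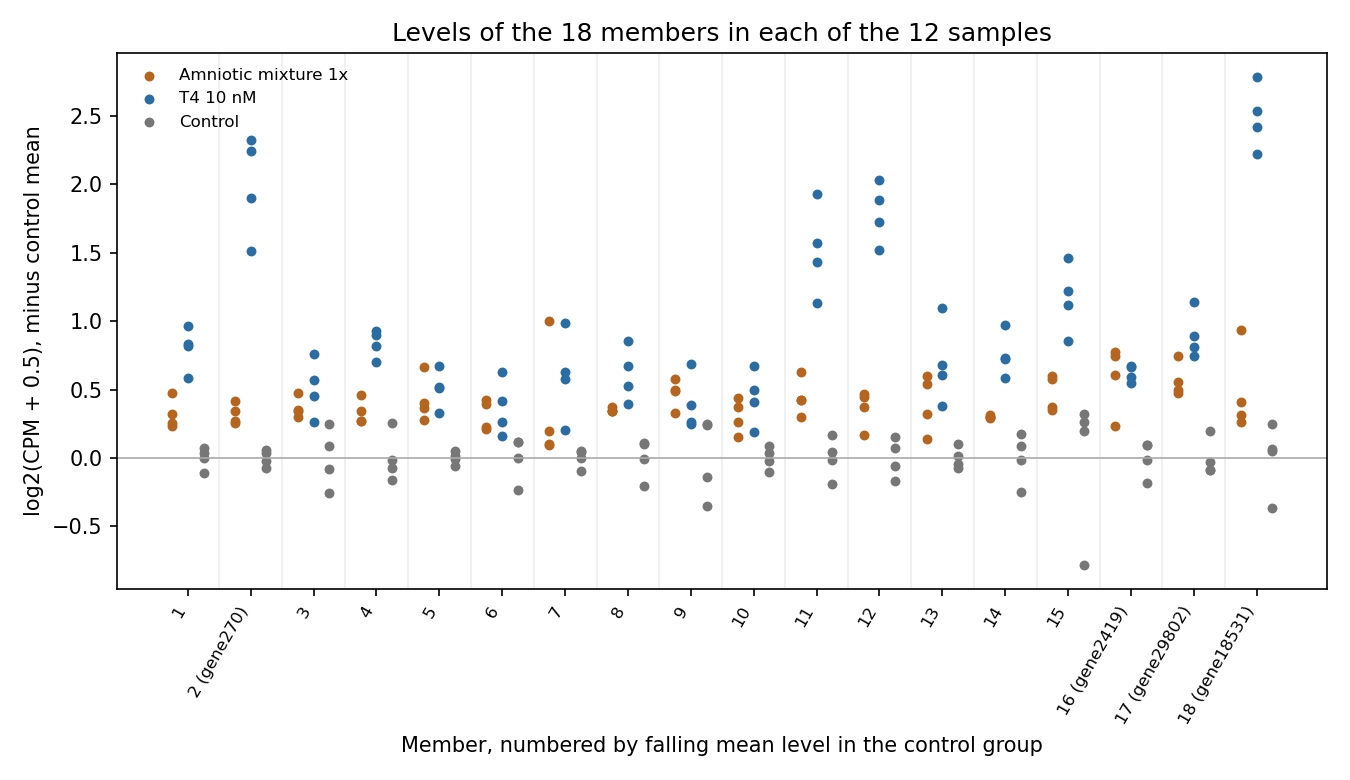
Each point is 1 sample, and the vertical axis gives log2(CPM + 0.5) of a member minus its mean in the control group. The members run along the horizontal axis by falling control level, with the mixture, T4 and control samples beside each other. The T4 samples of members 2, 11, 12 and 18 stand well above the mixture samples, while in the others the exposures lie closer together or overlap.

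When each member was ranked by the smaller of its 2 differences from the control, gene2419 and gene29802, members 16 and 17, came first. In gene2419, the mixture samples 5 to 8 had 7.68, 7.51, 5.11 and 6.76 CPM, the T4 samples 9 to 12 had 7.12, 6.69, 7.08 and 6.47 CPM, and the control samples 1 to 4 had 4.60, 4.23, 3.71 and 4.61 CPM. The exposed groups overlapped with each other. Mixture sample 7 was the lowest of the exposed samples, at 55 reads against 49 reads in control sample 4, the highest control sample. The means of gene2419 were 6.76 ± 1.17 CPM after the mixture, 6.84 ± 0.313 CPM after T4 and 4.29 ± 0.425 CPM in the control group (SD, n = 4). The differences from the control were 0.59 and 0.62. It was the member with the most nearly equal means of the 2 exposures.

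In gene29802, the mixture samples had 6.81, 5.66, 5.57 and 5.90 CPM, the T4 samples had 7.57, 7.16, 6.82 and 9.13 CPM, and the control samples had 3.61, 3.77, 3.61 and 4.51 CPM. Every T4 sample was thus above every mixture sample, although T4 sample 11 and mixture sample 5 were nearly level. The lowest mixture sample of gene29802 was 1.23 times the highest control sample, the widest such gap of the 18 members. Its differences were 0.57 after the mixture and 0.90 after T4.

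A difference of at least 1 after T4, which is a 2-fold change, was reached by 5 members, and after the mixture by 0. The 2 members with the most negative log2 fold change of the mixture against T4, apart from those above, were gene18531 and gene270. The lowest member of all in the control, gene18531, had 3.55, 2.13, 2.04 and 2.31 CPM in the mixture samples, 9.37, 10.8, 14.1 and 11.8 CPM in the T4 samples, and 1.71, 2.02, 1.14 and 1.69 CPM in the control samples. The T4 samples stood apart from all others. The mixture samples 6, 7 and 8 were close to the control, and the lowest, with 22 reads, was 1.01 times control sample 2, also with 22 reads. The means of gene18531 were 2.51 ± 0.703 CPM after the mixture, 11.5 ± 1.97 CPM after T4 and 1.64 ± 0.366 CPM in the control (SD, n = 4 samples).

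In gene270, member 2, the mixture samples had 41.1, 43.6, 41.5 and 46.0 CPM, the T4 samples had 99.0, 129.5, 174.3 and 164.9 CPM, and the control samples had 32.6, 35.2, 35.8 and 33.7 CPM. The mixture samples were close to each other and a little above the control, and the T4 samples spread widely, with samples 11 and 12 above 9 and 10. The means of gene270 were 43.0 ± 2.27 CPM after the mixture, 141.9 ± 34.5 CPM after T4 and 34.3 ± 1.46 CPM in the control (SD, n = 4 samples). Its level after T4 was 4.13 times and after the mixture 1.25 times that of the control.

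**Figure D2:**
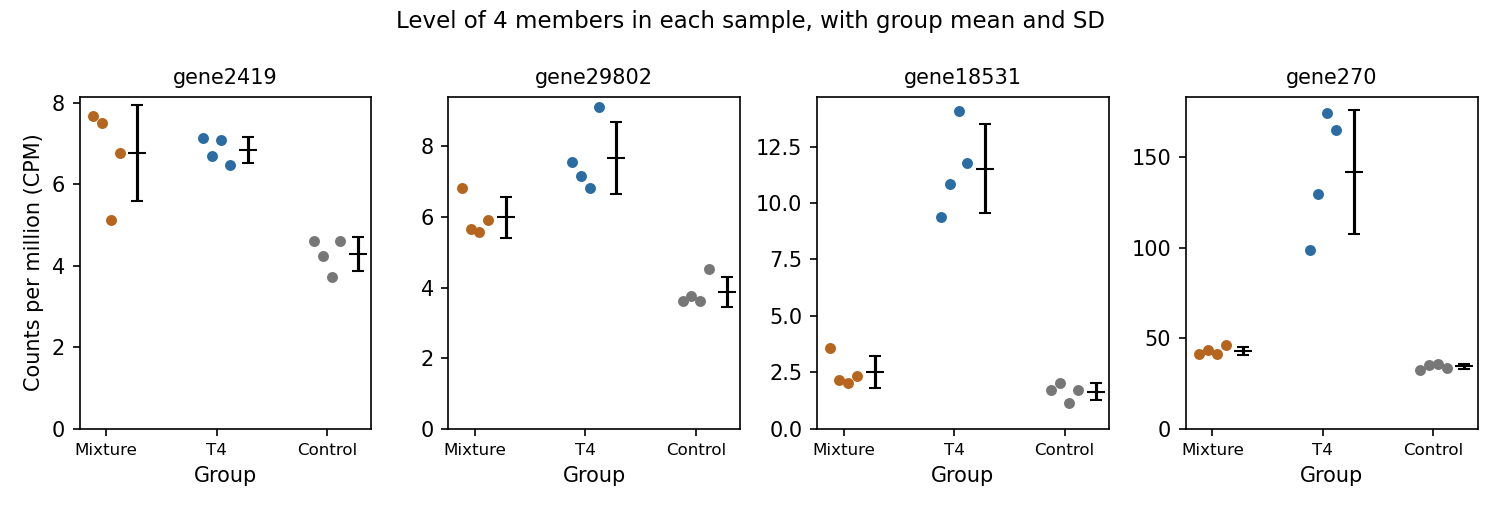
Each point is 1 sample and the vertical axis gives its level in CPM, from 0, with the mean and SD of each group of 4 samples drawn beside it. In gene2419 the mixture and T4 means were 6.76 and 6.84 CPM, while in gene18531 they were 2.51 and 11.5 CPM and in gene270 43.0 and 141.9 CPM.

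The other 3 members with a T4 difference of at least 1 were members 11, 12 and 15. Member 12 averaged 7.96 ± 0.770 CPM after the mixture, 22.4 ± 3.44 CPM after T4 and 6.08 ± 0.649 CPM in the control (SD, n = 4 samples). Member 11 averaged 8.78 ± 0.893 CPM after the mixture, 19.4 ± 4.62 CPM after T4 and 6.33 ± 0.697 CPM in the control. Member 15 averaged 5.94 ± 0.595 CPM after the mixture, 9.97 ± 1.82 CPM after T4 and 4.32 ± 1.44 CPM in the control (SD, n = 4 samples). The control mean of member 15 was lowered by sample 3 of the group, which had 2.19 CPM, while samples 1, 2 and 4 had 4.78 to 5.26 CPM. With sample 3 left out, its mixture difference was 0.21, under the limit of the rule, and its T4 difference was 0.90.

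The other 13 members, the 2 named first among them, had T4 differences from 0.37 to 0.90. Member 1, the most abundant, averaged 82.1 ± 6.31 CPM after the mixture, 115.0 ± 12.2 CPM after T4 and 65.6 ± 3.52 CPM in the control (SD, n = 4 samples). Member 9 was the only 1 of the 18 with a larger difference after the mixture than after T4, 0.47 against 0.40. Its T4 samples had 10.0, 9.14, 12.4 and 9.04 CPM, and the lowest of them was level with control sample 1, at 9.03 CPM. Member 7 rested on 1 mixture sample. Mixture sample 5 had 31.2 CPM, the other mixture samples 16.3 to 17.6 CPM, and the control samples 14.3 to 15.9 CPM. Without mixture sample 5 the mixture difference of member 7 was 0.13, and the T4 difference stayed at 0.60. In members 8 and 14 the mixture samples were nearly level with each other, with means of 17.5 ± 0.188 CPM and 6.16 ± 0.0367 CPM (SD, n = 4 samples).

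The comparison of the mixture with T4 was the only one between the groups on which the rule placed no direct condition. It is made from the same samples, and the limits on both differences from the control and on overlap shape it too. All 18 members passed the filter on low counts. Of them, 8 were lower after the mixture than after T4 and 0 were higher (quasi-likelihood test of edgeR, p-values adjusted by Benjamini-Hochberg over 27141 genes). Among all genes tested, 35.0% differed between the exposures, 19.9% with a lower and 15.1% with a higher level after the mixture. The 8 members are 44.4% of the 18. Among the 3674 genes with a control mean of at least 1 CPM and a T4 difference of at least 0.3, 77.1% were lower after the mixture than after T4, and among the 247 genes with both differences at least 0.3 it was 19.8%. The share among the members thus lay between those of the wider groups from which the rule took them. Of the 247 genes, 94 also had all T4 samples above all control samples, a condition that favors large T4 differences. No share was worked out for these 94, so nothing is read from the 44.4%. Over the members, the log2 fold changes of the mixture over T4 had a median of −0.35, against 0.01 over all genes tested. Most of these genes lack the T4 difference that the rule asks of a member. No median was worked out for the wider groups, so nothing is read from this gap.

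The largest of these changes were −2.20 in gene18531 (standard error 0.22, 95% confidence interval −2.68 to −1.73) and −1.73 in gene270 (standard error 0.14, interval −2.02 to −1.44). Their adjusted p-values were 8.69e-06 and 1.51e-06 (edgeR's quasi-likelihood test). Members 12, 11 and 15 followed with −1.50, −1.15 and −0.75. Members 4, 14 and 1 fell less, by 0.52, 0.50 and 0.50. In 10 members, all T4 samples were above all mixture samples, and in the other 8 the exposures overlapped. Such a gap was found in 19.1% of the 26401 genes, most of which lack the T4 difference that the rule asks of a member. Its share among the genes raised by T4 was not worked out, so nothing is read from the 10. The 10 members that did not pass the test had log2 fold changes from −0.37 to 0.06. Their 95% confidence intervals reached from −0.70 to 0.40 over all of them. The intervals of member 8 (−0.51 to −0.06) and of gene29802 lay below 0, and the others included 0. For gene2419 the log2 fold change was −0.03 (95% confidence interval −0.36 to 0.30, adjusted p = 0.912 in edgeR). For gene29802 it was −0.37 (95% confidence interval −0.69 to −0.04), and the adjusted p-value of 0.0730 from the same edgeR test missed the threshold.

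**Figure D3:**
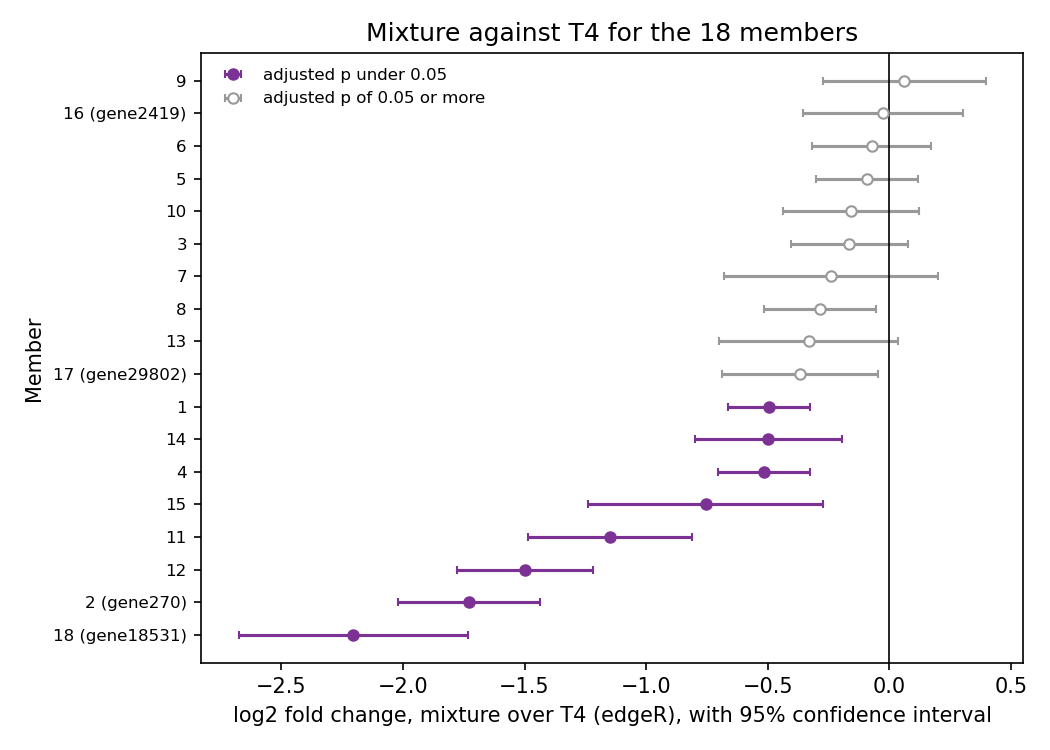
Each row is 1 member, and the horizontal axis gives the log2 fold change of the mixture over T4 from edgeR with its 95% confidence interval. Filled points have an adjusted p under 0.05. The 8 filled points run from −2.20 to −0.50, and the 10 open points from −0.37 to 0.06.

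Against the control, 0 of the 18 members passed the test after the mixture, and 17 passed it after T4 (the same edgeR test). Over all genes tested, 0.520% passed for the mixture and 24.3% for T4. The genes that passed as higher were 0.0405% of all genes tested for the mixture and 14.7% for T4. The rule used both contrasts, so these counts describe the members and nothing is read from them. For the mixture, the adjusted p-values of the members ranged from 0.0529 to 0.339, and 16 members had an unadjusted p under 0.05, as did 15.5% of all genes tested. DESeq2's Wald test called 5 members higher, against 0.618% of the 23291 genes to which it gave an adjusted p. With the score on component 2 of the PCA as a covariate, edgeR called 6 higher, against 0.383% of all genes. With a threshold of 0.1 on the adjusted p it called 5, against 0.284%. After T4, member 9 was the exception, with an adjusted p of 0.0560 in edgeR.

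The rule asked for a gap between the lowest exposed and the highest control sample. The lowest mixture sample was between 1.01 and 1.23 times the highest control sample over the 18 members. With 95% exact Poisson intervals, which cover counting error only, these 2 samples were apart in 0 members. For T4, the lowest sample was between 1.00 and 4.64 times the highest control sample, and the intervals were apart in 6 members, which were members 1, 2, 4, 11, 12 and 18. The share of all genes with such intervals apart was not worked out, so nothing is read from the 0 and the 6. A member had from 12 to 2019 reads in a sample.

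Component 2 of a PCA of all genes with a count held 19.9% of the variance and divided the samples into 2 sets of 6, as described in the methods as a batch effect. Control samples 1 and 2, mixture samples 5 and 6 and T4 samples 9 and 10 were in the first set, and the labels do not say which breeding a sample came from. When the fit held both the set and the exposure, 0 of the 18 members differed between the sets, and 3 had an unadjusted p under 0.05 (edgeR's quasi-likelihood test). Of the 27141 genes tested, 13.4% differed between the sets in this test, and 7366 had an unadjusted p under 0.05. DESeq2 called 0 members as well. Of the 31442 genes to which it gave an adjusted p, 1821 were called higher in the second set and 1858 lower. The rule used the same samples, so that this is a description of what it takes.

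Within each set, 2 exposed samples stood against 2 control samples. The mixture difference of the members ranged from 0.17 to 0.72 in the first set and from 0.12 to 0.72 in the second, with medians of 0.38 and 0.41. It was at least 0.3 in 12 and 13 members, and in both sets in 7. The T4 difference ranged from 0.08 to 2.16 in the first set and from 0.44 to 2.82 in the second, with medians of 0.72 and 0.82, and was at least 0.3 in both sets in 15 members. All of these are above 0 because the rule allows no overlap. The T4 difference was larger in the second set in 16 members, the exceptions being member 7 and gene29802, and the mixture difference in 9. For gene270 the T4 difference was 1.73 in the first set and 2.27 in the second, and for gene18531 it was 2.16 and 2.82. The difference of the T4 effect between the sets was itself tested as an interaction, a choice made after seeing the data. It passed the threshold in 0 of the 27141 genes, with 3 members at an unadjusted p under 0.05 (edgeR's quasi-likelihood test, lowest adjusted p of a member 0.459). The same test for the mixture passed the threshold in 0 genes, with 0 members at an unadjusted p under 0.05. On the signed log2 scale, the fitted effect was larger in the second set in 16 members for T4 and in 8 for the mixture. The same was so in 49.2% and 49.0% of all genes tested, which also include genes that an exposure lowered. No share was worked out for the genes raised by T4, so the 16 cannot be called particular to the members. Over all genes, 2316 genes for T4 and 2202 for the mixture had an unadjusted p under 0.05.

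**Figure D4:**
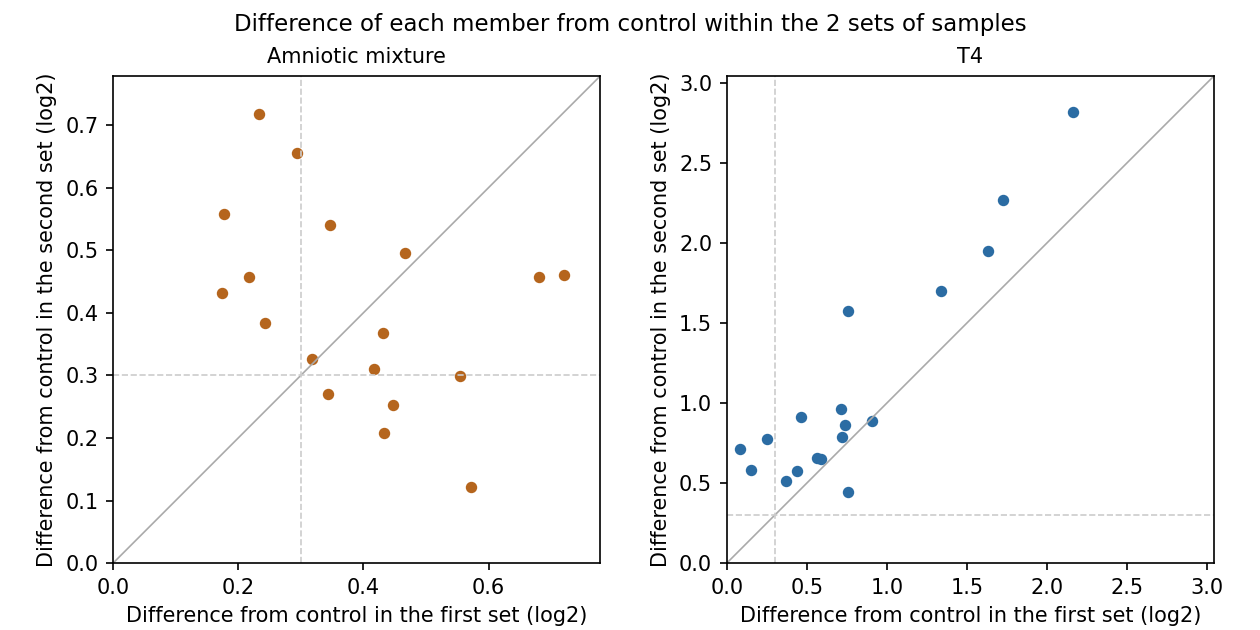
Each point is 1 member, with its log2 difference from the control in the first set on the horizontal axis and in the second set on the vertical axis, for the mixture on the left and T4 on the right. The solid line marks equal differences and the dashed lines the limit of 0.3. In the T4 panel 16 of the 18 points lie above the solid line, and in the mixture panel 9 do.

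Summed over the 18 members, the level was 361.5, 338.8, 317.4 and 339.9 CPM in mixture samples 5 to 8, 470.0, 511.2, 603.2 and 581.5 CPM in T4 samples 9 to 12, and 257.0, 277.5, 262.3 and 252.1 CPM in control samples 1 to 4. Both exposed groups were above the control samples, as the rule fixes for each member. The T4 sums were also above the mixture sums, which the rule does not fix directly. Abundant members weigh most in these sums. The means after the mixture and after T4 were 43.0 and 141.9 CPM in gene270 and 82.1 and 115.0 CPM in member 1. In 8 members the mixture and T4 samples overlapped. The mean of the log2 differences, which weights members equally, was 0.49, 0.40, 0.28 and 0.42 in the mixture samples and 0.85, 0.86, 1.07 and 1.00 in the T4 samples, while the control samples were between −0.08 and 0.09. Mixture sample 7 was the lowest mixture sample in 9 members and the highest in 1. T4 sample 11 was the highest T4 sample in 8 members and T4 sample 9 the lowest in 8. Among the control samples, sample 2 was the lowest in 0 members. Control samples 1, 2 and 4 were each the highest in 5 members, and control sample 3 in 3.

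The membership depended on single samples. When each of the 12 samples was left out in turn, 7 members met the rule every time, which were members 5, 11, 12, 13, 16, 17 and 18, with gene2419, gene29802 and gene18531 among them. The other 11, gene270 among them, missed a limit in at least 1 run. Without control sample 1, gene270 had a mixture difference of 0.297, and without mixture sample 8 one of 0.289. The most members, 5, were lost without control sample 4.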

How the data were processed

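RNA was sequenced from 12 brain samples of *Xenopus laevis* tadpoles, 4 per group. The deposited values are raw counts, the number of reads that the authors assigned to each gene. For these counts, duplicated reads were collapsed, trimmed, selected for length with cutadapt (version 1.15), mapped with Bowtie2 (version 2.2.4) to genome release 9.2 keeping only reads that mapped uniquely, and then counted by HTSeq-count (version 0.9.1) in union mode. Component 2 of the PCA, which the authors took out at a later step, is still in these counts. Between 38.3% and 42.2% of the reads of a sample were on rows that name no gene, which were left out. The chi-square per degree of freedom between samples of a group was between 3.14 and 7.32, so that no sample was a copy of another of its group.

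The members and the tests were chosen with earlier results of these data known. The members were found from CPM on the sum of the gene rows, as log2(CPM + 0.5). Tests used edgeR (version 4.0.16, in R version 4.3.3): the quasi-likelihood test, TMM scaling, the filterByExpr filter (minimum count 10), all 12 samples in 1 fit of the 3 groups without covariate, and Benjamini-Hochberg adjustment over all genes tested, with a threshold of 0.05. This fit took the 4 samples of a group as independent, although they came from 2 breedings. The sets of samples came from a PCA of counts transformed with vst of DESeq2 (version 1.42.0). The fits were tested on simulated data first. Alternatives were other scalings, pseudocounts, limits and filters, DESeq2's test, the score on component 2 as a covariate, fits of only the groups compared, and leaving out each sample. Fits within each set and the test of the exposure effect between the sets were chosen after seeing the data. Genes were named by a rule: the 2 members with the largest smaller difference, and the 2 other members with the most negative log2 fold change of the mixture against T4. Of the 51041 gene numbers, 0 matched the RefSeq table of names (assembly Xenopus_laevis_v10.1), so that lists of thyroid hormone genes and of cell type markers, and the sequences of the members, were not analysed here.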

Additional observations from a re-analysis of the deposited data

Results flagged for a closer look

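In 54 combinations of a member and a group of 4 samples, 3 samples stood apart from the others of their group by more than Dixon's critical value of 0.829 on their share of the range. Chance flags about 1 in 20 such groups. In member 7, mixture sample 5 had 31.2 CPM (325 reads), and the other mixture samples had 16.3 to 17.6 CPM. In member 15, control sample 3 had 2.19 CPM (23 reads), and the other control samples had 4.78 to 5.26 CPM. In member 8, mixture sample 7 had 17.7 CPM, and the others had between 17.3 and 17.4 CPM, a small gap in a group that was nearly level.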

How the results depend on the processing

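The number of members moved with the scaling and the limits. With the thresholds kept, it was 32 with TMM-scaled CPM and 31 with DESeq2 size factors in place of 18, with all 18 kept in both. On these scales the median mixture difference of all 26401 genes was 0.01 and 0.00, against −0.02 with CPM on the sum of gene rows. It was 44 with a minimum difference of 0.2, 2 with 0.5 (gene2419 and gene29802), and 247 with no condition on overlap. It was 20 and 15 with pseudocounts of 0.1 and 2, and 18 and 13 with a control mean of at least 0.5 and 5 CPM. Leaving out 1 sample gave from 17 to 76 members. It gave 60, 76 and 35 without control samples 1, 2 and 3 and 31 and 45 without mixture samples 5 and 7. Fewer samples make the condition on overlap easier to meet. Without 1 sample, 7 to 9 members and 4519 to 5383 of all genes were lower after the mixture than after T4. Of the 8, 7 passed in all 19 fits made without the added ones, which was not counted for all genes. The exception was member 15, which missed the threshold without mixture sample 7 and without T4 sample 12 (highest adjusted p = 0.0618 in edgeR). With 2 samples per group, 5 and 7 members were lower within the first and second set. Against the control, 11 and 15 passed after T4. Of all genes tested, 2785 of 27146 and 4788 of 27199 were lower after the mixture than after T4. Against the control, 2597 and 3013 of all genes were higher after T4, so the counts moved over all genes too. The cause of the difference between the sets was not tested. Against the control, 5 members passed after the mixture with DESeq2, 5 with an adjusted p under 0.1 and 6 with the covariate. Of the genes adjusted, 0.618%, 0.284% and 0.383% were higher. In the 12 fits without 1 sample, only 0 to 7 of all genes passed as higher, so nothing is read from 0 members passing. After T4, 15 to 17 members and 3332 to 3970 genes were higher in these fits. Between the sets, 1 member differed with no filter on low counts (1941 of 38850 genes higher, 2059 lower). In the 12 fits 0 members did (at least 1427 and 1354 genes). With a pseudocount of 2, 3 members in place of 7 had all 4 differences within the sets at 0.3 or more. The log2 fold change of the mixture over T4 changed its sign in gene2419, to 0.11 within the first set and to 0.0855 without mixture sample 7, in a range from −0.0937 to 0.0855 when 1 sample was left out, and adjusted p-values ranged from 0.580 to 0.978 over its alternatives. For gene29802 they ranged from 0.0580 to 0.443. No analysis could be paired by replicate number, as the groups share none. Only component 2 and its sets entered the fits as a covariate. A count of 3, at most 0.288 CPM, was taken as the floor, and every member was above it in every sample.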
